A study of Mus musculus with 5 samples.

Results

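The 59 genes described here carry out DNA replication and mitosis, and they were chosen by symbol from the 31053 genes in the deposited count tables. All 59 symbols were found. Of them, 25 act in DNA replication and 34 in mitosis. Their levels were read in 3 cell classes of the mouse lung, each set by a gate on a few marker genes that are not among the 59.

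The study deleted the β1 integrin gene (*Itgb1*) in alveolar type 2 (AT2) cells, the surfactant-producing stem cells of the alveolus, and injured the lung with a single intratracheal dose of lipopolysaccharide (LPS), a bacterial wall component. Deletion used the SP-C rtTA TetO-Cre system, in which a surfactant protein C promoter drives a doxycycline-dependent Cre in mice with floxed *Itgb1* on a C57BL/6 background. The groups were adult mice: β1fl/fl littermates given LPS and killed at day 7 or day 21, β1AT2-KO mice given LPS and killed at day 7 or day 21, and β1AT2-KO mice given PBS and killed at day 7. All mice had received doxycycline and came off it before the injury. The PBS mice carry the deletion too, and PBS-treated β1fl/fl mice were not analysed here. Each of the 5 libraries pooled viable cells lacking CD45 and Ter119 from several mice, which antibody hashtags told apart. Each library held 3 hashtags in use, counted here as 3 mice, and the day 21 libraries had EPCAM-positive cells added. Because each group was 1 library, library and group cannot be told apart.

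Before a cell divides, licensed origins are loaded with the MCM helicase in G1 and fired in S phase, when the replication fork, the nucleotide-supplying enzymes and histone supply are all active. E2F factors drive many of these genes. In G2 and M phase, Cdk1 with cyclins A and B, the Aurora and Bub1 kinases, the kinetochore and the spindle motors separate the chromosomes, and many of their genes are held off in resting cells by the DREAM complex, which binds the CHR element. In the healthy adult lung few AT2, endothelial or mesenchymal cells divide, and after injury AT2 cells and capillary endothelium are both known to re-enter the cycle.

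Promoters of the replication genes and the mitosis genes are described first, as background. Whether an element goes with the size of a gene's change was not tested. Sequences were taken from RefSeq on GRCm38.p6, which held an entry for 52 of the 59 genes. In the window from 250 bases before to 50 bases after the start, the CHR element, searched as TTTGAA on both strands, was found for 22 of 30 mitosis genes (73.3%), for 4 of 22 replication genes (18.2%) and for 20.2% of all 27025 genes. An E2F-type element, searched on both strands as TTCCCGC, as well as in the forms TTGGCGC, further TTGCCGC and lastly TTCGCGC, was found for 4 of 30 mitosis genes (13.3%), 15 of 22 replication genes (68.2%) and 10.9% of all genes. The CCAAT box was found on either strand for 73.3%, 68.2% and 41.1%, and CHR together with CCAAT for 60.0%, 13.6% and 7.97%. A gene with several listed starts was counted if any of its windows held the element, and overlaps between elements were not removed.

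The 4 mitosis genes with the greatest day 7 LPS change in endothelial cells are shown with the 150 bases before the start, 5′ to 3′ on the gene's strand, with all matches to the 3 elements in capitals.
*Kif11* (chr19:37376232-37376381, plus strand): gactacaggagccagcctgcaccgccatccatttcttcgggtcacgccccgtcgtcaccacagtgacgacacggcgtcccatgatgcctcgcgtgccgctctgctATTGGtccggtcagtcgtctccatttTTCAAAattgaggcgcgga
*Mki67* (chr7:135716380-135716529, minus strand): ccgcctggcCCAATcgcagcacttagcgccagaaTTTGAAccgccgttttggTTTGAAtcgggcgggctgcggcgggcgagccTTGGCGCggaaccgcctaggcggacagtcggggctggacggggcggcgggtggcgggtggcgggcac
*Top2a* (chr11:99024190-99024339, minus strand): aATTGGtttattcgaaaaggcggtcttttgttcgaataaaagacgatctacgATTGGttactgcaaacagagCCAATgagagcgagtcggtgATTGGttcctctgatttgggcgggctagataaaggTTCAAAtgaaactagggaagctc
*Nuf2* (chr1:169531465-169531614, minus strand): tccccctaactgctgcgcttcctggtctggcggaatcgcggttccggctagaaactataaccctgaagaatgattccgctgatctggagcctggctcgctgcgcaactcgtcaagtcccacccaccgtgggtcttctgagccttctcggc
*Kif11*, *Mki67* and *Top2a* each held a CHR and a CCAAT match in this stretch, *Mki67* also an E2F-type match, and *Top2a* held 4 CCAAT matches. *Nuf2* held no match to the 3 elements.

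The 4 replication genes chosen the same way are shown for contrast.
*Clspn* (chr4:126556830-126556979, plus strand): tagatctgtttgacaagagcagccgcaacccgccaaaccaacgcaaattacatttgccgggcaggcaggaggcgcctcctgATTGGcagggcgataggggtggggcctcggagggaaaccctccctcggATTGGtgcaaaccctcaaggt
*Cdc6* (chr11:98908001-98908150, plus strand): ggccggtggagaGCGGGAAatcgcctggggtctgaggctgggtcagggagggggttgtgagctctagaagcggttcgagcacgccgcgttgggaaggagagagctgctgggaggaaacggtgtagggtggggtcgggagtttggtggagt
*Rrm2* (chr12:24708104-24708253, plus strand): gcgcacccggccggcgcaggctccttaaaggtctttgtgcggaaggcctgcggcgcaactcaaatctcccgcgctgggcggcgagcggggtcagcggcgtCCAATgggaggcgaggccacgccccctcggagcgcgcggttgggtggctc
*Uhrf1* (chr17:56303187-56303336, plus strand): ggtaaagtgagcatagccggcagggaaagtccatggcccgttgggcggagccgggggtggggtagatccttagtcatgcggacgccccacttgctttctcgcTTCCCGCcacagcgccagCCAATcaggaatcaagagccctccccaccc
These 4 held no CHR match in this stretch, while *Cdc6* and *Uhrf1* held an E2F-type match and *Clspn*, *Rrm2* and *Uhrf1* a CCAAT match. *Uhrf1* has 2 listed starts, and the first is shown. A match is a description of the letters, not of a bound site.

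After cells under 700 genes or outside 0.1% to 15% mitochondrial RNA were dropped, libraries held 2224 to 8671 cells. Median depths were 2196 to 5246 UMIs per cell, where UMIs (unique molecular identifiers) count captured RNA molecules. Levels are given in CPM, the UMIs of one gene or of the summed list scaled to 1000000 UMIs from the cells named. A single hashtag was carried by 50.9% to 78.7% of these cells. Any 2 libraries shared 15 to 102 cell barcodes. Scrublet's own threshold marked at most 0.0346% of cells as doublets in the day 7 libraries and was not relied on, the gates left out cells with another lineage's gate genes, and values by mouse used cells with a single hashtag. *Xist* was at 295 to 320 CPM in the 3 day 7 β1fl/fl mice and at or under 0.306 in the 3 day 7 β1AT2-KO LPS mice, so sex and genotype cannot be told apart at day 7. One PBS mouse was high in *Xist* (201 CPM) and 2 were low (8.38 and 14.2), and 1 of the day 21 β1fl/fl hashtags held both *Xist* (93.7) and Y-linked RNA (86.7), so its cells were not of 1 sex. It may hold more than 1 animal, and values given per day 21 β1fl/fl mouse count hashtags. Without it the log2 ratio of β1AT2-KO to β1fl/fl summed levels at day 21 was 0.04 in AT2, 0.22 in endothelial and -0.19 in mesenchymal cells, against 0.09, 0.20 and -0.24 with it. *Itgb1*, the targeted gene, was at 279 and 357 CPM in β1fl/fl AT2 cells with fewer than 10 listed genes (day 7 and day 21), and at 118, 167 and 154 in the β1AT2-KO libraries (PBS, day 7 LPS and day 21 LPS).

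The AT2 gate (*Sftpc* at least 5% of UMIs, with *Epcam* and without *Cdh5*, *Pecam1* or *Col1a2*) held 119, 355, 26, 176 and 1240 cells in the day 7 β1fl/fl LPS, day 7 β1AT2-KO LPS, PBS, day 21 β1fl/fl and day 21 β1AT2-KO libraries. In the same order the endothelial gate (at least 2 UMIs of *Cdh5* and *Pecam1*) held 6508, 4777, 7976, 1187 and 879 cells, and the mesenchymal gate (at least 2 UMIs of *Col1a2*) held 395, 553, 103, 331 and 165. All 9 AT2 markers, all 8 endothelial markers and all 7 mesenchymal markers had UMIs in their own gate in every library. This does not measure purity, because the AT2 and mesenchymal markers all had UMIs in the endothelial gate too. In the AT2 gate the 3 club cell markers summed to 421 to 13784 CPM in day 7 β1fl/fl LPS mice. They summed to 399 to 1718 in day 7 β1AT2-KO LPS mice and 0 to 453 in PBS mice, and their part in AT2 values was not tested.

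At day 7 after LPS, endothelial cells held the highest library levels of the 3 gates, 1554 CPM in β1fl/fl and 2532 CPM in β1AT2-KO, against 528 CPM in PBS. The summed level was 567, 504 and 520 CPM in the 3 PBS mice (mean 530 ± 32.3, SD, n = 3). It was 1272, 1539 and 1898 in the day 7 β1fl/fl LPS mice (1570 ± 314) and 1714, 1754 and 4325 in the day 7 β1AT2-KO LPS mice (2598 ± 1496). Each LPS mouse at day 7 was above each PBS mouse, the 2 LPS groups overlapped, and 1 β1AT2-KO mouse stood far above the rest. At day 21 the level was 540, 500 and 529 in β1fl/fl mice and 481, 879 and 440 in β1AT2-KO mice, so 1 day 21 mouse lay above all PBS mice and the others lay within or below their range.

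**Figure D1:**
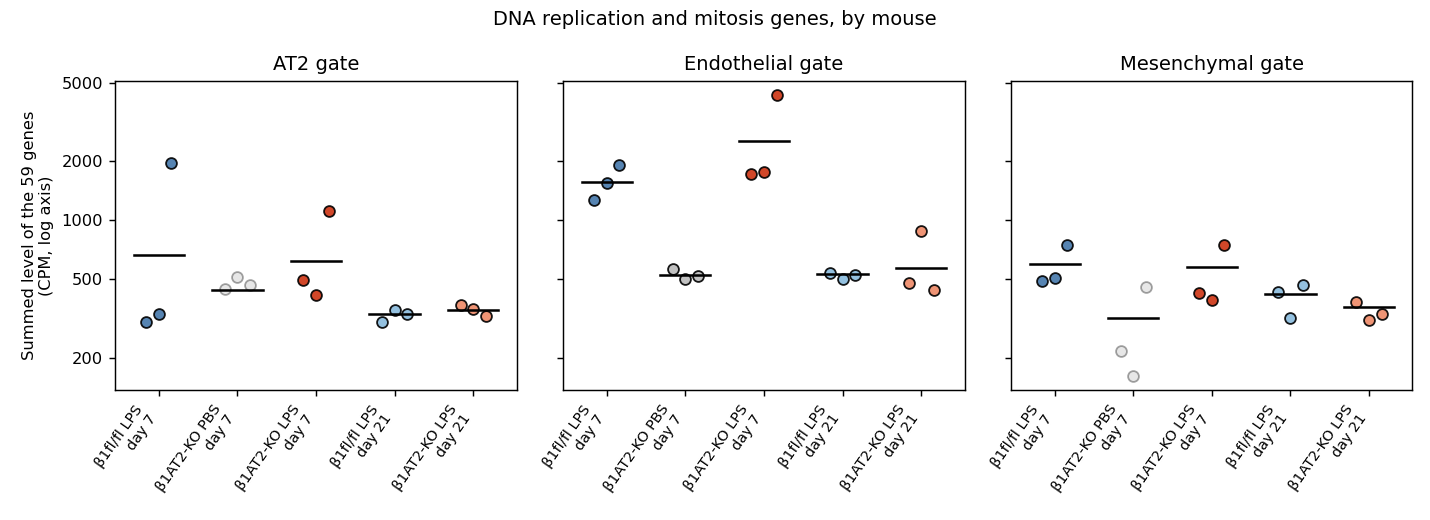
Summed level of the 59 genes (CPM, log axis) in the AT2, endothelial and mesenchymal gates. Points are mice (pale where the mouse had fewer than 10 cells in the gate) and bars are whole libraries. In the endothelial gate the day 7 LPS mice sit between 1272 and 4325 and the PBS mice between 504 and 567, while in the AT2 and mesenchymal gates the day 7 β1fl/fl LPS and β1AT2-KO LPS mice overlap.

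Mitosis genes accounted for more of the difference than replication genes. Mitosis genes summed to 229 ± 37.4 CPM in endothelial cells of PBS mice and to 1686 ± 1063 in β1AT2-KO LPS mice at day 7 (SD, n = 3 each). Replication genes summed to 302 ± 7.43 and 911 ± 433 in the same mice. In β1fl/fl LPS mice the values were 1039 ± 267 for mitosis and 530 ± 47.3 for replication.

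To ask which of the genes changed with LPS, counts were summed per mouse and day 7 β1AT2-KO LPS was tested against β1AT2-KO PBS in endothelial cells. Of the 59 genes, all passed the filter on low counts, 58 rose and none fell (edgeR quasi-likelihood test, Benjamini-Hochberg adjusted p below 0.05). Some passed the filter only through LPS mice, such as *Kif11* and *Mki67*, with 2, 0 and 0 and 17, 0 and 0 UMIs in PBS mice. For such genes a fall could not have been called, so the count of genes that rose is partly set by the filter. Over all 11666 genes tested, 14.4% rose and 12.4% fell. The median log2 change of the 59 was 3.78, beside 0.02 over all genes tested. It was 2.20 for the replication genes and 5.11 for the mitosis genes. For every one of the 59 genes each LPS mouse was above each PBS mouse, which held for 31.1% of all genes tested. Without the highest LPS mouse 56 of the 59 genes rose, with a median log2 change of 3.07. No PBS library total was 0 for any of the 59, but 3 genes rested on 1 to 3 PBS UMIs in the whole library. Fewer dividing cells and less RNA per cell cannot be told apart in summed counts, and cells are therefore taken up separately further on.

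The helicase and origin genes load and fire replication origins, and all 9 rose in endothelial cells after LPS, with log2 changes from 1.04 to 5.81. *Mcm6*, a subunit of the helicase ring, was at 24.4, 27.4 and 26.0 CPM in PBS mice and at 57.0, 61.6 and 96.9 in β1AT2-KO LPS mice. Its log2 change was 1.36 ± 0.17 (SE, adjusted p 0.000267, edgeR quasi-likelihood test with Benjamini-Hochberg adjustment, as for all adjusted p-values here). *Mcm3*, another ring subunit, was at 28.7, 29.2 and 34.9 in PBS mice and 49.7, 52.3 and 107 in LPS mice. Both had UMIs in every PBS mouse. *Cdc6*, which recruits the ring to origins, was at 0.163, 0 and 0.197 in PBS mice, 7.92, 4.40 and 14.7 in β1AT2-KO LPS mice and 2.20, 2.46 and 4.83 in β1fl/fl LPS mice. With 3 UMIs in the PBS library, *Cdc6* stood 59.1-fold higher after LPS, with a counting interval of 19.8 to 291.

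At the replication fork all 5 genes rose. *Pcna*, the sliding clamp, had the smallest change of the fork genes, from 37.2, 40.3 and 44.7 CPM in PBS mice to 65.2, 59.8 and 98.6 in β1AT2-KO LPS mice, a log2 change of 0.76 ± 0.16 (SE, adjusted p 0.00412, edgeR). *Fen1*, the flap endonuclease of lagging strand synthesis, went from 11.4, 10.8 and 12.8 to 24.8, 26.4 and 52.9. *Clspn*, a checkpoint adaptor at the fork, had 2 UMIs in the whole PBS library, and was at 6.00, 9.84 and 27.7 in the LPS mice. Its ratio of 143 rests on those 2 UMIs and has a counting interval of 39.0 to 1186.

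All 5 genes of nucleotide supply and uracil removal rose. The large and small subunits of ribonucleotide reductase, which makes deoxynucleotides, are both listed. *Rrm1* was at 23.0, 27.2 and 25.6 CPM in PBS mice and 33.3, 35.7 and 78.3 in LPS mice (log2 change 0.85 ± 0.26), and *Rrm2* was at 3.26, 0.799 and 0 in PBS mice and 34.1, 39.9 and 109 in LPS mice (5.24 ± 0.64, adjusted p 0.000222, edgeR). *Tyms*, thymidylate synthase, was at 14.7 to 15.4 in PBS mice and at 38.5, 36.3 and 75.0 in LPS mice.

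Among the 6 genes of S phase chromatin and control, all rose. *Slbp*, which binds histone mRNA, was the most abundant of them and changed least, from 58.0, 62.5 and 52.8 to 88.2, 84.7 and 164 CPM (log2 change 0.85 ± 0.20). *Hells*, a chromatin remodeller, went from 0.815, 1.80 and 1.18 to 18.0, 15.3 and 47.3. *Uhrf1*, which maintains DNA methylation behind the fork, went from 0.815, 0.200 and 0.394 to 9.55, 8.54 and 25.2 (log2 change 4.69 ± 0.57, adjusted p 0.000212, edgeR).

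The 7 genes of cyclins, Cdk1 and its subunits all rose, with log2 changes from 3.24 to 5.62. *Cdk1*, the mitotic kinase, was at 2.77 in 1 PBS mouse and at 0 in the other 2, and at 31.7, 29.3 and 102 in LPS mice. *Ccna2* (cyclin A2) was at 2.44, 0.200 and 0.197 in PBS mice and 28.4, 37.8 and 104 in LPS mice. *Cks2*, a Cdk1-binding subunit, was at 6.84, 3.40 and 2.76 in PBS mice and 25.7, 28.7 and 83.6 in LPS mice. The PBS mouse that was above the other 2 for these genes was the one high in *Xist*, and it held 8 of the 9 PBS endothelial cells with 10 or more listed genes.

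Of the 10 mitotic kinase and checkpoint genes 9 rose, and *Bub3* did not pass the test. *Ube2c*, the ubiquitin-conjugating enzyme of the anaphase-promoting complex, was at 8.96, 4.59 and 1.58 CPM in PBS mice and 73.7, 57.5 and 192 in LPS mice. *Bub3*, a checkpoint protein, was at 99.4, 97.7 and 106 in PBS mice, 114, 116 and 132 in β1AT2-KO LPS mice and 99.2, 99.8 and 108 in β1fl/fl LPS mice. Its log2 change with LPS was 0.15 ± 0.08 (SE, adjusted p 0.166, edgeR). It was among the more abundant of the 59 in every mouse.

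All 5 kinetochore genes rose. *Cenpf* was at 3.91, 0.399 and 0.197 in PBS mice and at 54.6, 49.7 and 164 in LPS mice. *Cenpa*, the centromeric histone, was at 7.66, 4.79 and 5.91 in PBS mice and at 38.8, 34.2 and 106 in LPS mice. *Nuf2* and *Cenpe*, a microtubule-binding subunit and a kinetochore motor, had log2 changes of 5.85 ± 0.68 and 5.19 ± 0.65.

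All 8 spindle and cytokinesis genes rose, with log2 changes from 3.26 to 7.42. *Kif11*, the motor that pushes spindle poles apart, had the greatest fitted change of the 59. It was at 0.326, 0 and 0 CPM in PBS mice and at 14.2, 14.8 and 53.7 in LPS mice, and 5 PBS UMIs in the whole library gave a ratio of 110 with a counting interval of 46.8 to 342. *Tpx2*, a spindle assembly factor, was at 2.44, 0 and 0.591 in PBS mice and 23.2, 32.1 and 79.7 in LPS mice. *Anln*, a scaffold of the contractile ring, was at 1.63, 0 and 0.591 and at 21.6, 24.1 and 83.3. *Nusap1*, which bundles spindle microtubules, had a log2 change of 5.38 ± 0.68.

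All 4 genes of chromosome structure rose. *Mki67*, the coat of mitotic chromosomes and the standard marker of cycling cells, was at 2.77, 0 and 0 CPM in PBS mice, at 50.5, 61.6 and 164 in β1AT2-KO LPS mice and at 40.8, 51.5 and 54.2 in β1fl/fl LPS mice. Its log2 change with LPS was 6.32 ± 0.69 (SE, adjusted p 0.000145, edgeR), the smallest adjusted p of the 59. *Top2a*, the topoisomerase that untangles replicated chromosomes, was at 4.89, 0.200 and 0.197 in PBS mice and at 63.6, 82.1 and 228 in LPS mice (5.86 ± 0.70, adjusted p 0.000210, edgeR). *Hmgb2* and *Smc4*, a chromatin protein and a condensin subunit, were abundant without injury. *Hmgb2* was at 62.7, 52.3 and 49.5 and then 183, 185 and 411, and *Smc4* at 32.1, 30.6 and 28.4 and then 63.0, 58.3 and 111.

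**Figure D2:**
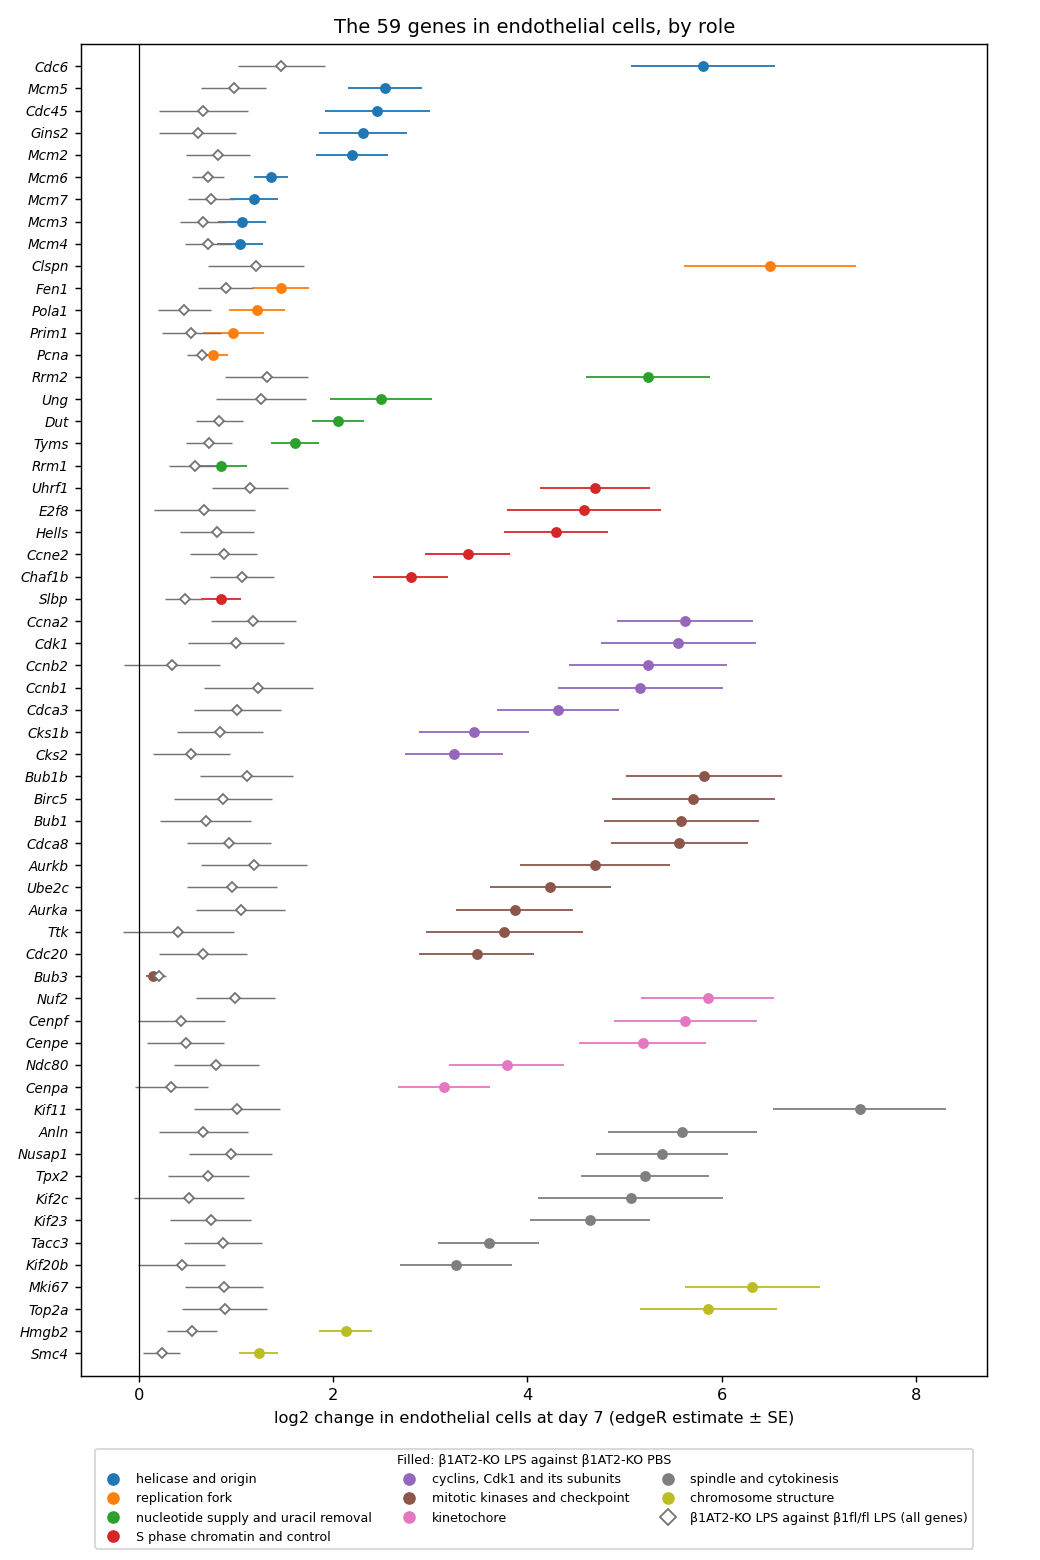
log2 change of each of the 59 genes in endothelial cells at day 7 (edgeR estimate, bars ± SE), grouped by role. Filled circles compare β1AT2-KO LPS with β1AT2-KO PBS and open diamonds compare β1AT2-KO LPS with β1fl/fl LPS. The circles run from 0.15 for *Bub3* to 7.42 for *Kif11*, while the diamonds lie between 0.21 and 1.47.

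**Figure D3:**
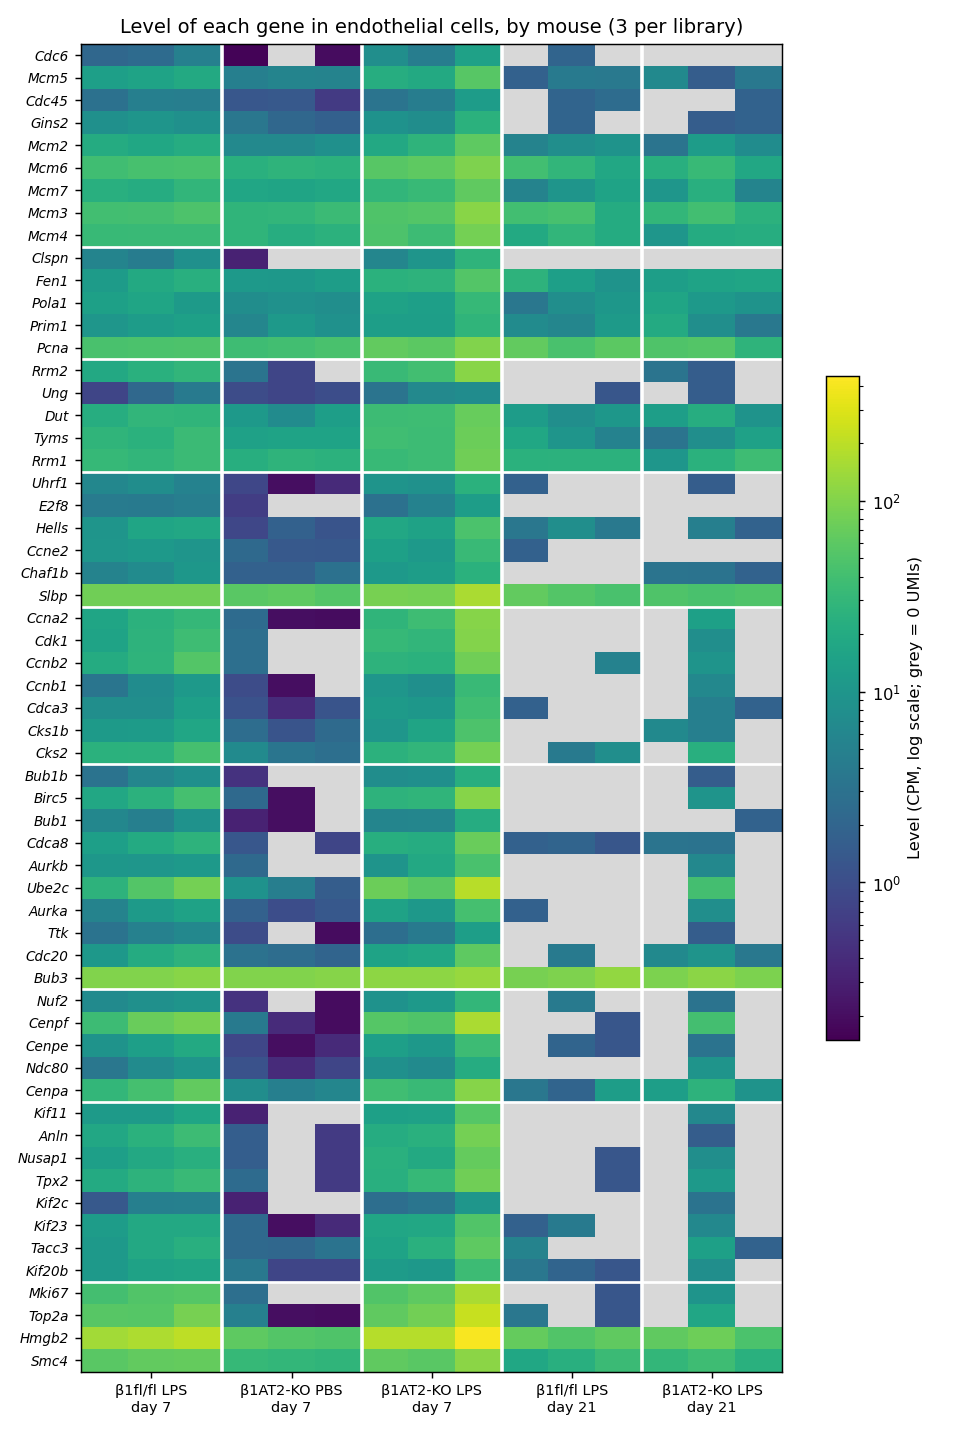
Level of each of the 59 genes (rows, grouped by role) in endothelial cells of each mouse (columns, 3 per library), in CPM on a log color scale, with grey for 0 UMIs. Many mitosis genes are grey in some, not all, of the PBS and day 21 mice and present in every day 7 LPS mouse. *Bub3*, *Hmgb2*, *Slbp* and the MCM genes are present throughout.

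A separate list of 40 cell cycle regulators and effectors that are not among the 59 was read in the same test, and 39 of them passed the filter. Of these, 24 rose and 3 fell. *E2f1*, a driver of S phase genes, rose by 4.39 ± 0.68 on the log2 scale, *Foxm1*, a driver of G2 and M genes, by 3.21 ± 0.48 and *Mybl2*, another activator of G2 and M genes, by 4.88 ± 0.95. *Plk1*, a mitotic kinase, rose by 4.67 ± 0.78. The 3 that fell were *Cdkn1a* (-1.82 ± 0.23, adjusted p 0.000257, edgeR), which encodes the Cdk inhibitor p21, *Ccnd3* (-0.54 ± 0.10) and *Btg2* (-0.49 ± 0.16). *Ccnd1* and *Cdkn1b* had log2 changes of 0.19 ± 0.10 and -0.13 ± 0.08, and neither passed.

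In the day 7 LPS libraries most listed UMIs of the endothelial gate lay in few cells. A cut at 10 or more listed genes in 1 cell was added after the counts per cell were seen. It held 287 of 6508 endothelial cells (4.41%, exact 95% interval 3.92% to 4.94%) in the day 7 β1fl/fl LPS library, 443 of 4777 (9.27%, 8.47% to 10.1%) in the day 7 β1AT2-KO LPS library and 9 of 7976 (0.113%, 0.0516% to 0.214%) in the PBS library. At day 21 it held 2 of 1187 and 1 of 879 cells. By mouse the counts were 52, 79 and 90 in β1fl/fl LPS, 65, 75 and 221 in β1AT2-KO LPS and 8, 0 and 0 in PBS. As shares of each mouse's endothelial cells these were 2.72%, 4.64% and 5.66%, then 4.91%, 5.36% and 19.5%, then 0.349%, 0% and 0%. Intervals cover counting error only.

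These cells carried 60.5% of all listed UMIs of the endothelial gate in the β1fl/fl LPS library and 73.8% in the β1AT2-KO LPS library, but 5.52% in the PBS library. The cut counts the same 59 genes in every gate, so such shares, and levels inside and outside it, are partly set by the cut itself. Within the cells that passed it the listed genes made up 14405, 14044 and 16606 CPM in the β1fl/fl LPS, β1AT2-KO LPS and PBS libraries. In the remaining cells the level was 656 (interval 644 to 668), 764 (749 to 780) and 500 (491 to 510) CPM in the same order. By mouse the remaining cells were at 676, 626 and 665 in β1fl/fl LPS, 717, 704 and 914 in β1AT2-KO LPS and 493, 504 and 520 in PBS, so the groups of LPS mice still lay above the PBS mice. The cells with 10 or more listed genes were deeper, with median UMIs of 3672 against 2355 in the β1fl/fl LPS library and 3603 against 2368 in the β1AT2-KO LPS library, and the part of depth in the cut was not tested. More than 1 hashtag was carried by 59 of the 287 (20.6%) and 56 of the 443 (12.6%), against 14.9% and 9.60% of the remaining endothelial cells of the same libraries, and the part of multiplets in the result was not tested.

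**Figure D4:**
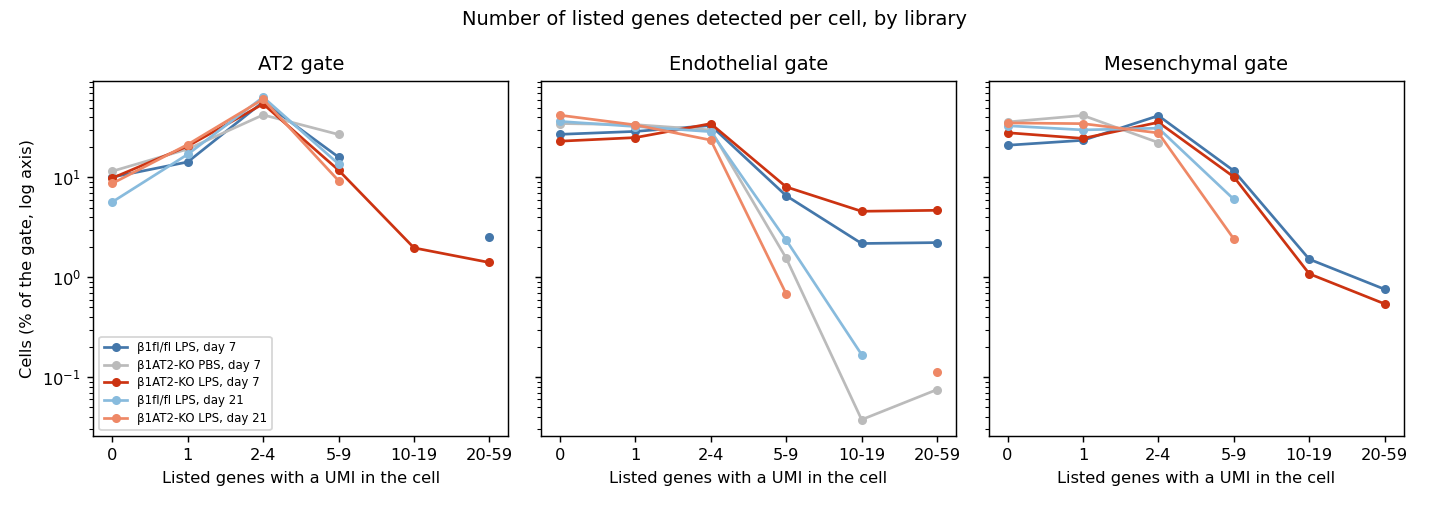
Share of gated cells (percent, log axis) by the number of the 59 genes with a UMI in the cell, for each library, with no point where a bin held no cell. Bins differ in width, and the last 2 run from 10 to 19 and from 20 to 59 genes, so the shape of a line depends on the bins. In the endothelial gate the added cut at 10 or more listed genes holds 4.41% and 9.27% of cells in the 2 day 7 LPS libraries. It holds 0.113% in the PBS library and 0.169% and 0.114% in the day 21 libraries.

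The endothelial identity of these cells was read from genes outside the list. In the β1AT2-KO LPS library *Cldn5* and *Kdr*, an endothelial junction gene and the VEGF receptor, were at 1036 and 372 CPM in cells with 10 or more listed genes and at 1375 and 782 in the others. *Gpihbp1* and *Plvap*, markers of general capillary cells, were at 1184 and 1625 against 1493 and 1724. *Car4* and *Ednrb*, markers of the aerocyte capillary cell, were at 446 and 48.2 against 1540 and 307. The β1fl/fl LPS library gave 680 against 2202 for *Car4* and 43.9 against 396 for *Ednrb*, and 1085 against 1318 for *Gpihbp1*, while *Plvap* was higher in the cells with 10 or more listed genes there, at 2021 against 1828. *Ptprc*, the pan-leukocyte gene, had 0 UMIs in the cells with 10 or more listed genes in both. *Itgb1* was at 1064 and 1122 in these cells and at 1051 and 1063 in the remaining endothelial cells of the same 2 libraries.

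Markers of other cells moved with LPS in the endothelial gate. The summed level of 3 lymphatic markers, all with UMIs in each library, was 1163 to 1260 CPM in β1fl/fl LPS mice, 232 to 1507 in β1AT2-KO LPS mice and 34.6 to 48.1 in PBS mice. Leaving out every cell with a lymphatic UMI gave 4.63%, 9.26% and 0.114% of cells with 10 or more listed genes, against 4.41%, 9.27% and 0.113%. The 9 AT2 markers summed to 509 to 1004, 775 to 1381 and 195 to 270 in the same order. The 7 mesenchymal markers summed to 300 to 360, 399 to 449 and 95.1 to 135, the 4 *Krt8* intermediate markers to 14.6 to 25.2, 18.0 to 33.9 and 4.73 to 5.21, and the 3 club cell markers to 1336 to 2246, 1420 to 1773 and 104 to 1267. The 4 ciliated markers summed to 24.8 to 32.8, 3.60 to 7.37 and 1.47 to 4.14, so the β1AT2-KO LPS and PBS mice overlapped. The 5 AT1 markers were lower after LPS, at 453 to 519 and 337 to 512 against 769 to 872 in PBS mice. The 6 immune markers, at 0.630 to 14.4, 2.07 to 5.81 and 1.77 to 3.26, overlapped between LPS and PBS mice. The part of RNA or cells of these other types in the result was not tested.

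The share of endothelial cells with at least 2 listed genes was also higher in the day 7 LPS libraries than in the others. It was 44.1% and 51.9% in the day 7 β1fl/fl and β1AT2-KO LPS libraries, 31.6% in the PBS library, and 31.3% and 24.5% in the day 21 β1fl/fl and β1AT2-KO libraries. Thinned to 2000 UMIs per cell, which left out 3412 of 7976 PBS cells, 2565 of 6508 β1fl/fl and 1771 of 4777 β1AT2-KO LPS cells at day 7, the shares were 34.5%, 44.0% and 23.6% (β1fl/fl LPS, β1AT2-KO LPS, PBS). Ciliated airway cells, a class not expected to divide, are set beside it, and whether their listed UMIs are free RNA was not tested. In the day 7 β1fl/fl LPS library 61 of 89 of them had at least 2 listed genes (68.5%) at a median of 6129 UMIs, and 21.4% did after thinning. The thinned endothelial share in that library lay above the ciliated one, whose exact interval ran from 13.2% to 31.7%.

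The genotype comparison at day 7 asked whether deletion in AT2 cells went with another level of these genes in LPS-treated lungs. In endothelial cells all 59 genes had a positive log2 change in β1AT2-KO against β1fl/fl, with a median of 0.80 beside 0.00 over all genes, but none passed (edgeR quasi-likelihood, Benjamini-Hochberg adjusted p 0.0509 at the least). Over all 11666 genes 2.14% were called by edgeR at the adjusted threshold. At an unadjusted edgeR p below 0.05 there were 30 of the 59, and 9 without the highest β1AT2-KO mouse. DESeq2 called 2, *Mcm6* and *Pcna*. The shares of all genes by these 2 looser measures are not given here, so neither count is read as a result about the 59. For 14 of the 59 every β1AT2-KO mouse was above every β1fl/fl mouse, beside 13.6% of all genes tested. Without the highest β1AT2-KO mouse the median fell to 0.15, so the size of the difference rested on that mouse. This comparison and the LPS comparison share the β1AT2-KO LPS mice.

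By gene, *Cdc6*, *Rrm2* and *Ung*, which removes uracil from DNA, had the greatest genotype ratios. *Cdc6* was at 2.20, 2.46 and 4.83 in β1fl/fl and 7.92, 4.40 and 14.7 in β1AT2-KO mice (log2 change 1.47 ± 0.45, adjusted p 0.133, edgeR). *Rrm2* was at 19.0, 24.0 and 28.8 and at 34.1, 39.9 and 109, with no overlap (1.32 ± 0.43, adjusted p 0.149, edgeR). *Ung* was at 0.80, 2.26 and 3.99 and at 3.28, 6.47 and 7.47. *Cenpa*, *Smc4* and *Bub3* had the smallest ratios. *Mcm6*, at 38.8, 43.9 and 45.8 against 57.0, 61.6 and 96.9, did not overlap (0.71 ± 0.17, adjusted p 0.0509, edgeR). *Mki67* and *Top2a* had log2 changes of 0.88 ± 0.40 and 0.89 ± 0.44.

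AT2 cells, the cells in which *Itgb1* was targeted, held lower library levels of the list than endothelial cells. At day 7 after LPS these were 667 CPM in β1fl/fl and 619 in β1AT2-KO, against 1554 and 2532. In 1 β1fl/fl LPS mouse the AT2 level (1949) was above the endothelial one (1898). *Sftpc* alone took at least 5% of UMIs in this gate, and its part in the lower levels was not tested. At day 7 the summed level was 303, 332 and 1949 CPM in β1fl/fl LPS mice (54, 20 and 17 cells) and 495, 418 and 1115 in β1AT2-KO LPS mice (41, 99 and 59 cells). The groups overlapped, and in each 1 mouse stood above the other 2. The 2 high mice were also the highest of their group in endothelial and mesenchymal cells. PBS mice were at 447, 511 and 466, from 4, 2 and 9 cells. Leaving out mice in turn moved the log2 ratio of β1AT2-KO to β1fl/fl from -0.35 to between -0.92 and 1.09, so the direction depended on single mice.

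In AT2 cells too a large part of the listed UMIs lay in few cells. Cells with 10 or more listed genes were 3 of 119 in β1fl/fl LPS (2.52%, exact 95% interval 0.523% to 7.19%). They were 12 of 355 in β1AT2-KO LPS (3.38%, 1.76% to 5.83%) and 0 of 26 in PBS, with an exact upper limit of 13.2%. The 3 and 12 cells held 52.0% and 39.7% of the listed UMIs of their gate. They were deeper, with median UMIs of 17517 and 11250 against 8868 and 7369 in the other AT2 cells. The part of depth or doublets in these counts was not tested. Without the 3 and 12 cells the level was 334 (interval 301 to 371), 392 (368 to 416) and 442 (364 to 532) CPM in β1fl/fl LPS, β1AT2-KO LPS and PBS. At day 21 there were 0 of 176 cells in β1fl/fl (exact upper limit 2.07%) and 0 of 1240 in β1AT2-KO (0.297%).

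*Mki67* and *Top2a* showed how few. *Top2a* had 43 UMIs in β1fl/fl AT2 cells at day 7, of which 41 lay in the 3 cells with 10 or more listed genes, and 32 UMIs in β1AT2-KO AT2 cells, of which 30 lay in 4 cells. *Mki67* had 40 and 63 UMIs, of which 37 and 54 lay in such cells. *Ube2c* had 41 UMIs in β1fl/fl AT2 cells, of which 38 lay in 1 cell. By mouse, *Top2a* was at 1.98, 0 and 192 CPM in β1fl/fl LPS and at 0, 0 and 30.9 in β1AT2-KO LPS mice. *Mki67* was at 0, 6.26 and 163 and at 8.99, 2.46 and 59.9.

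In the 12 β1AT2-KO AT2 cells with 10 or more listed genes *Itgb1* was at 218 CPM (counting interval 146 to 313), against 167 (152 to 183) in the other AT2 cells of that library, and the 2 intervals overlap. *Sftpb* and *Lamp3*, surfactant and lamellar body genes, were at 9725 and 2148 in these cells and 10528 and 2011 in the others. *Krt8* was at 360 and 346, and *Ptprc* had 0 UMIs in both. *Cldn4*, another *Krt8* intermediate marker, was lower in these cells, at 7.51 (counting interval 0.190 to 41.8) against 65.3 (55.9 to 75.7). The 4 *Krt8* intermediate markers summed to 1179 against 1355, and *Ager*, an AT1 marker, was at 1141 against 1352. Of the 12, 2 carried more than 1 hashtag.

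Of the 59 genes 5 passed the filter on low counts in AT2 cells at day 7 (*Pcna*, *Smc4*, *Slbp*, *Bub3* and *Hmgb2*). None was called between genotypes by edgeR or by DESeq2 and none had an unadjusted p below 0.05, beside 1.69% called of 5081 genes. *Hmgb2*, the most abundant, was at 57.5, 75.1 and 182 CPM in β1fl/fl and 68.9, 86.2 and 162 in β1AT2-KO mice (log2 change 0.07 ± 0.34). *Pcna* was at 57.5, 25.0 and 47.9 and at 18.0, 45.5 and 44.4 (-0.41 ± 0.34). Among the 43 genes with at least 10 UMIs in both groups together, the greatest ratios of β1AT2-KO to β1fl/fl were those of *Fen1* (6.61 against 1.15 CPM, from 11 and 1 UMIs), *Mcm6* (20.4 against 6.88) and *Mcm2* (8.42 against 3.44). The smallest were those of *Ube2c* (6.61 against 47.0), *Top2a* (9.62 against 47.0) and *Cenpf* (10.2 against 26.4), genes whose β1fl/fl UMIs lay mostly in the few cells above. Of the 40 other cell cycle genes 12 passed the filter and 1 was called, *Btg2*, which was lower in β1AT2-KO AT2 cells (-0.73 ± 0.19, adjusted p 0.0452, edgeR).

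At day 21 the summed level in AT2 cells was 302, 349 and 333 CPM in β1fl/fl mice (328 ± 23.8, SD, n = 3) and 372, 353 and 325 in β1AT2-KO mice (350 ± 23.9), and the groups overlapped. Of the 59 genes 11 passed the filter and none was called by edgeR or DESeq2, beside 3.66% of 8720 genes. *Mcm4*, with a log2 change of 1.27 ± 0.54 (adjusted p 0.227, edgeR), was the 1 gene with an unadjusted p below 0.05. *Cks2* (6.72 against 0.684 CPM, from 50 and 1 UMIs), *Mcm4* (12.6 against 4.79) and *Mcm2* (5.38 against 2.73) had the greatest ratios of β1AT2-KO to β1fl/fl among the 27 genes with at least 10 UMIs. *Kif23* (1.08 against 2.73), *Bub1* (1.61 against 4.10) and *Cdc20* (1.88 against 3.42) had the smallest. The median ratio of the 27 was -0.16 on the log2 scale.

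The share of AT2 cells with at least 2 listed genes was 75.6%, 69.6% and 69.2% at day 7 (β1fl/fl LPS, β1AT2-KO LPS, PBS) and 77.3% and 69.9% at day 21 (β1fl/fl, β1AT2-KO), at median depths of 7497 to 11131 UMIs. After thinning it was 15.4%, 19.4%, 23.1%, 13.1% and 13.9%. Ciliated cells of the day 7 β1fl/fl LPS library, at 21.4% after thinning, were not below the AT2 cells of the same library at 15.4%, so the AT2 share in that library is not read as expression above the ciliated one. The summed level of ciliated cells in that library was 675 CPM, 2 of 89 ciliated cells held 10 or more listed genes, and without them it was 475. AT2 cells of that library were at 667 CPM, 3 of 119 held 10 or more, and without them the level was 334. Their level and count are likewise not read as above the ciliated ones.

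Endothelial cells at day 21 were near the PBS level in both genotypes. Of the 59 genes 9 passed the filter and none was called by edgeR or DESeq2 or at an unadjusted p below 0.05, beside 1.99% of 7373 genes. *Hmgb2*, *Pcna* and *Slbp* had log2 changes of 0.04 ± 0.22, -0.39 ± 0.26 and -0.15 ± 0.23. The 1 β1AT2-KO mouse at 879 CPM held a single cell with 37 of the 59 genes and 230 listed UMIs, which held all 26 UMIs of *Ube2c*, all 26 of *Cenpf* and 6 of the 12 of *Cdc20* in that library, the 3 genes with the greatest ratios. Without that cell the mouse was at 524. *Hells*, *Pcna* and *Mcm4* had the smallest ratios, with 2.71 against 4.88, 43.3 against 57.5 and 18.9 against 22.8 CPM. AT2 markers in the endothelial gate summed to 628 to 1455 CPM in β1fl/fl mice and 3289 to 3728 in β1AT2-KO mice at day 21, and their part in these values was not tested.

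In mesenchymal cells the list lay between 318 and 599 CPM in the 5 libraries. At day 7 the level was 491, 505 and 744 CPM in β1fl/fl LPS mice and 428, 392 and 751 in β1AT2-KO LPS mice, with overlap, and 217, 162 and 457 in PBS mice from 7, 2 and 3 cells. Cells with 10 or more listed genes were 9 of 395 (2.28%), 9 of 553 (1.63%) and 0 of 103 (exact upper limit 3.52%). They held 26.6% and 30.0% of the listed UMIs, at median depths of 14422 and 16154 UMIs against 4402 and 3973 in the other cells. *Dcn*, a fibroblast matrix gene, was at 472 and 432 CPM in these cells against 3909 and 5883 in the others, while *Col1a1*, the collagen I gene, was at 10237 and 14664 against 9729 and 10129.

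Of the 59 genes 6 passed the filter in mesenchymal cells at day 7 and none was called between genotypes by edgeR or DESeq2 or at an unadjusted p below 0.05, beside 0.102% of 5865 genes. *Dut*, which removes dUTP, had the greatest difference of the 6 (-0.65 ± 0.34) and *Hmgb2* was at -0.34 ± 0.23. *Cdca3* (6.30 against 0.744 CPM), *Cenpf* (8.40 against 1.49) and *Kif23* (4.72 against 0.744) had the greatest ratios of β1AT2-KO to β1fl/fl. *Ung* (1.05 against 6.70), *Mcm5* (2.10 against 7.44) and *Cdc6* (3.15 against 8.19) had the smallest, and all 6 rest on 16 UMIs or fewer in each group. No fit was made against PBS in AT2 or mesenchymal cells, because each PBS mouse had fewer than 10 gated cells. *Mcm4*, *Cks1b* and *Dut*, ranked highest in LPS against PBS with 0.5 UMIs added to each count, had 70, 56 and 53 UMIs in β1AT2-KO LPS mice and 0 in PBS mice. *Tacc3*, *Mcm6* and *Cenpa*, ranked lowest, had 16, 30 and 25 UMIs in LPS mice and 1, 2 and 1 in PBS mice.

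At day 21 mesenchymal levels were 432, 317 and 467 CPM in β1fl/fl mice and 381, 312 and 335 in β1AT2-KO mice. None of the 59 genes passed the filter there, where 0.337% of 1485 genes were called. *Mki67*, *Top2a* and *Cdk1* were at 0 in all 6 mice with a hashtag. Ratios of β1AT2-KO to β1fl/fl were greatest for *Dut* (6 and 6 UMIs, 30.1 against 16.1 CPM), *Smc4* (5 and 5 UMIs) and *Hmgb2* (8 and 13 UMIs). They were smallest for *Mcm6* (2 and 9 UMIs), *Bub3* (6 and 19) and *Rrm1* (4 and 12). With so few UMIs, differences were not detectable at this depth.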

How the data were processed

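Single-cell RNA from 5 droplet libraries was analysed. The authors deposited UMI counts per gene and cell barcode, with antibody hashtag counts, and the submitters' processing notes name Cell Ranger 3.1, Seurat 4.1.0 and mm10. No column was left unmapped. From the raw counts, cells under 700 genes or outside 0.1% to 15% mitochondrial RNA were dropped and *Gm42418* was removed from the totals. Per the labels each hashtag marks 1 mouse, but 1 day 21 β1fl/fl hashtag held RNA of both sexes and may hold more than 1 animal. A hashtag was in use when it took at least 1% of a library's hashtag counts, and a cell belonged to it when that hashtag alone exceeded 4 times its background. Mice were numbered by hashtag, and p-values measure their spread within 1 library per group.

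Counts of gated cells with a single hashtag were summed per mouse and tested with the edgeR 4.0.16 quasi-likelihood test (R 4.3.3, TMM scaling, filterByExpr), with Benjamini-Hochberg adjustment over all genes tested and a threshold of 0.05. DESeq2 1.42.0 was an alternative. Thinning drew 2000 UMIs per cell. Scrublet ran in scanpy 1.11.5 under python 3.11.15 and doublet removal was an alternative, as were other gates, filters and hashtag rules. Intervals on counts and shares, also for a count of 0, are exact 95% intervals (Poisson, or Clopper-Pearson in scipy 1.17.1) and cover counting error only. In simulated data for the endothelial LPS comparison, with 11248 genes tested, 95 of 97 genes changed by 2 on the log2 scale and 45 of 100 changed by 1 were recovered, with 6 false calls. The simulation held only the 2 groups compared and gave every gene the same spread between mice (dispersion 0.05). The listed genes were not simulated at their own spread, so these rates do not give the recovery for them.

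The 59 genes and the other lists were chosen with earlier results of these data known. Named genes were *Mki67* and *Top2a*, the 2 genes of each role with the most UMIs, up to 12 called genes per fit by p, and per comparison the 3 highest and 3 lowest ratios among genes with at least 10 UMIs.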

Additional observations from a re-analysis of the deposited data

Results flagged for a closer look

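Cells that entered none of the 3 gates were used in no comparison, and the listed genes were above the PBS level in them after LPS at day 7. They numbered 1308 in the β1fl/fl LPS library, 1555 in the β1AT2-KO LPS library and 566 in the PBS library. The summed level was 862 CPM (UMIs scaled to 1000000) in the first and 1206 in the second, against 458 in PBS (exact 95% counting interval 425 to 492). Of these cells 60, 101 and 1 held 10 or more listed genes, and 34, 67 and 0 of those carried markers of more than 1 lineage. Among all cells outside the gates, 817 of 1308, 1026 of 1555 and 209 of 566 carried such markers. The part of cell doublets in these levels was not tested.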

How the results depend on the processing

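No paired analysis was possible because each group was 1 library and its hashtags do not pair mice across groups. A cut at 10 listed genes and endothelial cells without lymphatic UMIs were added after seeing the data. Of the log2 ratios of the summed level, 2 moved by more than the spread between mice: mesenchymal LPS at day 7 went from 0.91 to 1.76 without 7 of the genes, and mesenchymal genotype at day 21 from -0.24 to 0.056 when thinned. Calls in the endothelial genotype comparison at day 7 went from 0 to 4 without a low-count filter, 2 with DESeq2, 1 with doublets removed and 2 with hashtags at 10 times background. Without a filter AT2 cells gave 2 calls at day 7 (*Ube2c* -2.99, *Top2a* -2.43) and 1 at day 21 (*Cks2* 3.14), and day 21 endothelial cells 2 (*Cenpf* 4.46, *Ube2c* 6.22). The shares of all genes called without a filter are not given here. In day 7 β1fl/fl AT2 cells 38 of 41 *Ube2c* UMIs lay in 1 cell and 41 of 43 *Top2a* UMIs in 3 cells. In day 21 β1AT2-KO endothelial cells 1 cell held all 26 UMIs of *Cenpf* and all 26 of *Ube2c*. The causes were not tested.

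Leaving out 1 mouse at a time, the ratio ranged from -0.92 to 1.09 (AT2 day 7), 0.14 to 0.95 (endothelial genotype day 7), -0.50 to 0.07 (mesenchymal genotype day 7), 1.71 to 2.52 (endothelial LPS), 0.56 to 1.47 (mesenchymal LPS), 0.04 to 0.15 (AT2 day 21), -0.18 to 0.38 (endothelial day 21) and -0.39 to -0.13 (mesenchymal day 21). Calls ranged from 0 to 1 in AT2 cells and in the endothelial genotype comparison at day 7, from 56 to 58 in the endothelial LPS comparison, and stayed at 0 elsewhere. The single AT2 call, *Top2a* (-3.46), came without β1fl/fl mouse 1. Endothelial genotype calls were *Mcm6* or *Pcna*, 1 each, without any 1 of the β1AT2-KO mice. The share of cells with at least 2 listed genes moved under all 4 alternatives in each gate and library. AT2 and mesenchymal LPS fits were not run, because PBS mice had 2 to 9 such cells, nor was the mesenchymal day 21 fit at the stricter hashtag rule.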
